A study of Mus musculus with 12 samples.

Results

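Transcripts of the integrated stress response (ISR) were followed in single muscle fibers of young and aged mice. The set holds 10 genes that are regulators or targets of this response: the transcription factors *Atf4*, *Atf5* and *Ddit3*, the inhibitor *Trib3*, the enzymes *Asns*, *Psat1*, *Phgdh* and *Mthfd2*, and the secreted factors *Gdf15* and *Fgf21*. They are taken by name, and all 10 were found among the 55367 gene symbols of the deposited tables. RNA was sequenced from 12 samples of myofibers of the extensor digitorum longus (EDL), a fast hindlimb muscle, in 3 groups of 4. Young fibers came from mice aged 3–4 months and both aged groups from mice aged 26–28 months, on the C57BL/6 J background, and the labels name no transgene or drug in any group. The aged fibers were stained with Fluo-4, a calcium dye, and picked under a fluorescence stereomicroscope as Fluo-4 normal or Fluo-4 abnormal. The abnormal fibers stain more brightly over the sarcoplasmic reticulum, where they contain arrays of tubules, and were described in aged males. Fibers of all groups were released with collagenase before RNA was taken. The labels do not tie a sample to a mouse and do not give the number of fibers in it, so the p-values measure the spread between these samples, which may be partly technical.

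The ISR joins several kinds of stress to a common step, the phosphorylation of the translation factor eIF2. This lowers protein synthesis in general but raises the translation of a few mRNAs, among them that of ATF4, a transcription factor that turns on genes for amino acid supply, one-carbon metabolism and stress hormones. In muscle the response is known for its activation by faults of the mitochondria and of the endoplasmic reticulum (ER), and for the release of FGF21 and GDF15 into the blood. Because ATF4 is controlled largely by translation, its transcript level does not measure its protein.

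All values are TPM, a share of the transcripts of a sample that corrects for transcript length and for sequencing depth, so levels can be set side by side between genes. Each sample had 16841 to 17936 symbols above 0 TPM, and the read depth behind them is unknown. Myofiber markers were abundant, with 8 genes summing to 98500 to 142000 TPM. The satellite cell list stayed at or under 2.44 TPM, and of the 3 adipocyte markers *Adipoq* and *Plin1* were at 0 in all samples. The 6 immune markers summed to 0.718 to 1.48 TPM in young, 5.2 to 15.4 in normal and 7.43 to 11.5 in abnormal samples. Of them, *Lyz2* alone was at 0.269 to 1.04 TPM in young, 4.58 to 13.8 in normal and 6.69 to 10.5 in abnormal samples. *Cd68* was at or under 2.84 TPM, and *Ptprc*, *Adgre1*, *Csf1r* and *C1qa* at or under 0.68 TPM, in every sample. The part of the immune markers in differences from young fibers was not tested. The share of mitochondrially-encoded TPM was 4.75% to 6.92% in abnormal, 8.75% to 10.9% in normal and 7.35% to 8.01% in young samples. *Myh4*, the myosin of the fastest fibers, made up 98.9% to 99.7% of the adult myosin heavy chain TPM in abnormal, 93.7% to 99.2% in normal and 96.9% to 98.6% in young samples. These measures moved with the groups, and their part in the results was tested only through the alternative fits.

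ATF4 acts with C/EBP proteins on the C/EBP-ATF response element, so the promoters of the set were searched for it. The letters TGATGNAA, or TTNCATCA on the other strand, were sought in windows from 250 bases before to 50 bases after the RefSeq start sites. They were found in 3 of the 13 windows of the 10 genes, against 3.97% of the 32851 mouse promoters of the RefSeq table. The stretches around the 3 matches are shown because this element is known from ATF4 targets, with the matched letters in capitals, 5′ to 3′ on the gene's strand.
Asns: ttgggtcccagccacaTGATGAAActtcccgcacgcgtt
Fgf21: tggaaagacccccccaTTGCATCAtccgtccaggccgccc
Trib3: gcagattagctcaggtTTACATCA
The *Asns* stretch lies at chr6:7693210-7693248 of GRCm39 on the minus strand, with the match 23 bases before the start site. The *Fgf21* stretch lies at chr7:45265030-45265069 on the minus strand, with the match 139 bases before the start. The *Trib3* stretch lies at chr2:152185959-152185982 on the minus strand, with the match 14 bases after the start. The cyclic AMP response element TGACGTCA, which reads the same on both strands, was in 0 of the 13 windows and in 1.79% of all promoters. A match is only a description of letters, and genes without one were not searched outside these windows.

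The 10 genes spanned a wide range of levels in the fibers. *Atf4* and *Ddit3* together held 94.6% to 97.9% of the summed TPM of the set in every sample. This sum was 215 ± 19.2 TPM (SD, n = 4) in young, 239 ± 51.4 in normal and 285 ± 58.3 in abnormal fibers, and the ranges of the aged groups overlapped. In samples of whole fibers, a change in the number of fibers that express a gene and a change in its level per fiber cannot be told apart. *Mthfd2* followed at 2.74 to 12.6 TPM and *Asns* at 0.254 to 1.77 TPM. The other 6 genes, *Atf5*, *Trib3*, *Psat1*, *Phgdh*, *Gdf15* and *Fgf21*, had a mean under 1 TPM in every group and are marked as low. Of these, *Trib3*, *Psat1*, *Phgdh*, *Gdf15* and *Fgf21* were listed at 0 in at least 1 sample. At such values few reads may lie behind a number, and the log2(TPM + 1) scale used for the tests compresses their differences.

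**Figure D1:**
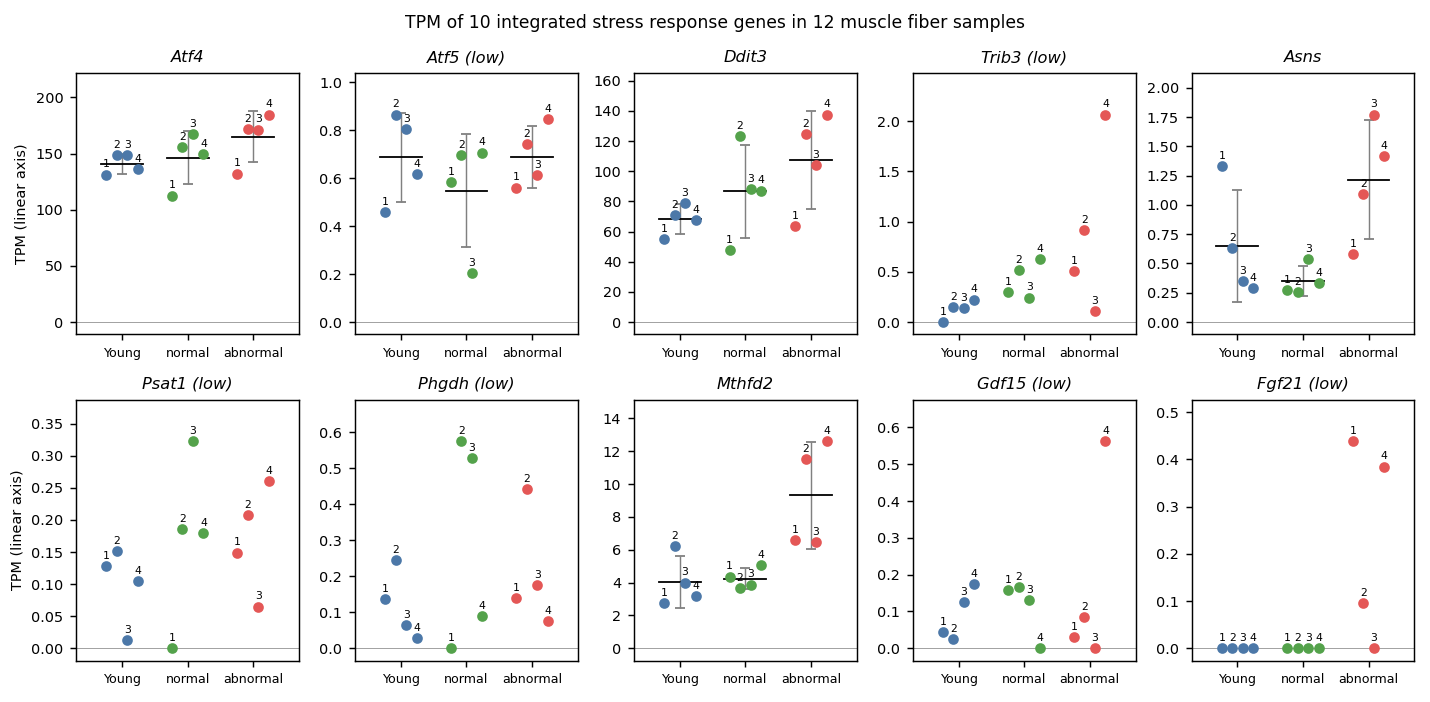
TPM of the 10 genes (linear axes, each with its own range) in 4 young, 4 Fluo-4 normal and 4 Fluo-4 abnormal samples, with the replicate number beside each point. Lines are means and error bars SD (n = 4), drawn for the 5 genes above 0 in all samples, and "low" marks the 6 genes with a mean under 1 TPM in every group. *Mthfd2* and *Asns* show 4 abnormal samples above all 4 normal samples.

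Each gene was tested between the groups in a single limma fit of the 12 samples to log2(TPM + 1), with Benjamini-Hochberg adjustment of the p-values over all 14426 protein-coding and mitochondrially-encoded genes tested. A gene was called at an adjusted p under 0.05. The fit did not pair the aged samples by replicate number. All 10 genes passed the filter of a mean of 0.02 TPM in at least 1 group, *Fgf21* only through the abnormal group. Between Fluo-4 abnormal and Fluo-4 normal fibers, 2 of the 10 genes were called, *Mthfd2* and *Asns*, where 9.35% of all genes tested were called. Both were higher in abnormal fibers, a direction in which 7.36% of all genes were called. The samples did not overlap for these 2 genes only, against 11.5% of all genes whose abnormal samples all lay above the normal ones. Of the 10 genes, 9 had a positive difference and 1 a negative one, with a median of 0.23 on the log2 scale, whereas 69.6% of all genes tested were positive and their median was 0.10. Against young fibers, abnormal fibers differed in 1 of the 10 genes, *Mthfd2*, which was higher, where 8.51% of all genes were called and 6.09% were called higher. All 10 differences were positive, where 66.4% of all genes tested were, with a median of 0.25 against 0.07 for all genes. An unadjusted p under 0.05 was found for 5 of the 10 genes (*Ddit3*, *Trib3*, *Asns*, *Mthfd2* and *Fgf21*) and for 23.0% of all genes. *Fgf21*, at 0 in all normal and young samples, could only be positive in both comparisons of abnormal fibers. Its part in these counts and medians is therefore no support. Between normal and young fibers, 0 of the 10 genes were called by limma, where 1.15% of all genes were called. For an unadjusted p under 0.05 the count was 0 of the 10, against 12.9% of all genes. The abnormal group is shared by 2 of these comparisons and the young group by 2, so they are not independent.

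**Figure D2:**
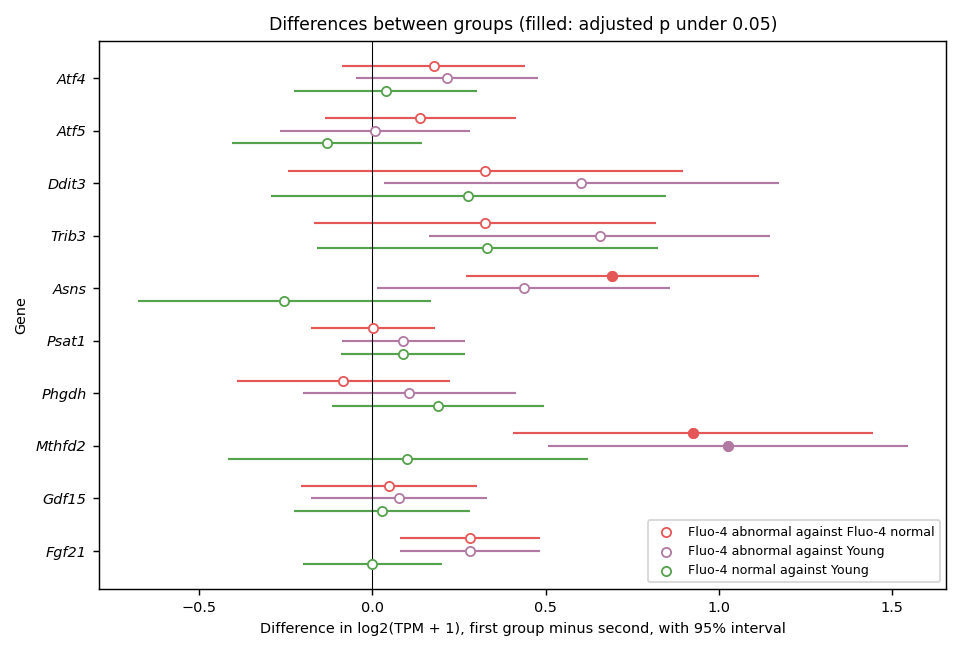
Differences in log2(TPM + 1) of the 10 genes for the 3 comparisons, first group minus second, with 95% confidence intervals from the limma fit (12 samples). Filled points have an adjusted p under 0.05. These are *Mthfd2* in both comparisons of abnormal fibers and *Asns* between abnormal and normal fibers.

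Among the transcription factors, *Atf4* was the most abundant gene of the set and differed little between groups. It is the factor whose translation rises when eIF2 is phosphorylated, and lies on chromosome 15 from 80139372 to 80141745. Its TPM was 131, 148, 149 and 136 in the young samples, 113, 156, 168 and 149 in the normal samples and 132, 172, 171 and 185 in the abnormal samples. The groups overlapped, with replicate 1 lowest in each of them. The difference between abnormal and normal fibers was 0.18 on the log2 scale (95% interval -0.09 to 0.44, adjusted p = 0.40 from limma), and 0.06 without replicate 1 of the normal fibers and 0.28 without replicate 1 of the abnormal fibers. Adding the *Myh4* share to the fit gave 0.39. It became -0.00 after rescaling with TMM-type factors, which moved the median of all genes tested from 0.10 to 0.02. Against young fibers the difference was 0.22 for abnormal (adjusted p = 0.32) and 0.04 for normal fibers (adjusted p = 0.94).

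*Ddit3* encodes CHOP, a factor induced downstream of ATF4 that is tied to cell death in prolonged stress, and occupies positions 127124268 to 127132163 of chromosome 10. It was at 54.9, 71.1, 78.9 and 67.8 TPM in young, 47.9, 123, 88.0 and 87.2 TPM in normal and 63.5, 125, 104 and 137 TPM in abnormal samples. The means stood in the order young (68.2 ± 9.99 TPM, SD, n = 4), normal (86.6 ± 30.7) and abnormal (107 ± 32.3), but each group overlapped its neighbour. The difference between abnormal and normal fibers was 0.33 (95% interval -0.24 to 0.90, adjusted p = 0.47). It was 0.07 without replicate 1 of the normal fibers, 0.19 without replicate 4 and 0.56 without replicate 1 of the abnormal fibers, 0.15 with TMM-type factors and 0.91 with the *Myh4* share as a covariate. The difference between abnormal and young fibers was 0.60 (0.03 to 1.17, adjusted p = 0.19). It passed with the *Myh4* share as a covariate (adjusted p = 0.042). *Ddit3* stands on 2 lines in the files, and the second, a short gene model for an upstream reading frame, was at 0 in all samples. Over 3576 bp its exons overlap those of *Mars1*, the methionyl-tRNA synthetase, on the other strand, and the libraries keep no strand. *Mars1* was at 50.2 ± 5.95 TPM in young, 51.7 ± 4.44 in normal and 47.5 ± 6.03 in abnormal fibers (SD, n = 4).

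*Atf5*, a factor of the same family that is likewise controlled by translation and is linked to mitochondrial stress, was low. It occupies positions 44461680 to 44466082 of chromosome 7. Its TPM was 0.460, 0.865, 0.804 and 0.617 in young, 0.584, 0.696, 0.203 and 0.707 in normal and 0.561, 0.741, 0.612 and 0.847 in abnormal samples. The 3 groups overlapped, and the differences of 0.14 between abnormal and normal fibers (adjusted p = 0.53), 0.01 between abnormal and young (adjusted p = 0.99) and -0.13 between normal and young (adjusted p = 0.73) did not pass. Its exons overlap those of *Nup62* and *Il4i1* on the other strand by 180 bp each. *Nup62* was at 11.4 ± 0.503 TPM in young, 12.1 ± 2.04 in normal and 14.3 ± 0.437 in abnormal fibers (SD, n = 4). *Il4i1* was at 0.869 TPM or less in every sample. The libraries keep no strand, and the part of *Nup62* reads in the low *Atf5* values was not tested.

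The levels of *Atf4* and *Ddit3* varied from sample to sample together with those of immediate early genes, which cells switch on within minutes of a disturbance such as tissue dissociation. A list of 12 such genes, with *Fos*, *Jun*, *Egr1* and the heat shock genes *Hspa1a* and *Hspa1b*, summed to 1931 to 2516 TPM in young samples. In the normal samples the sum was 1488, 3041, 3723 and 3103 TPM, and in the abnormal samples 2981, 3625, 3488 and 3878 TPM. Replicate 1 of the normal fibers had the lowest sum, the lowest *Atf4* and the lowest *Ddit3* of the 12 samples, and replicate 4 of the abnormal fibers had the highest of each. The part of the immediate early response in the spread of *Atf4* and *Ddit3* was not tested.

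**Figure D3:**
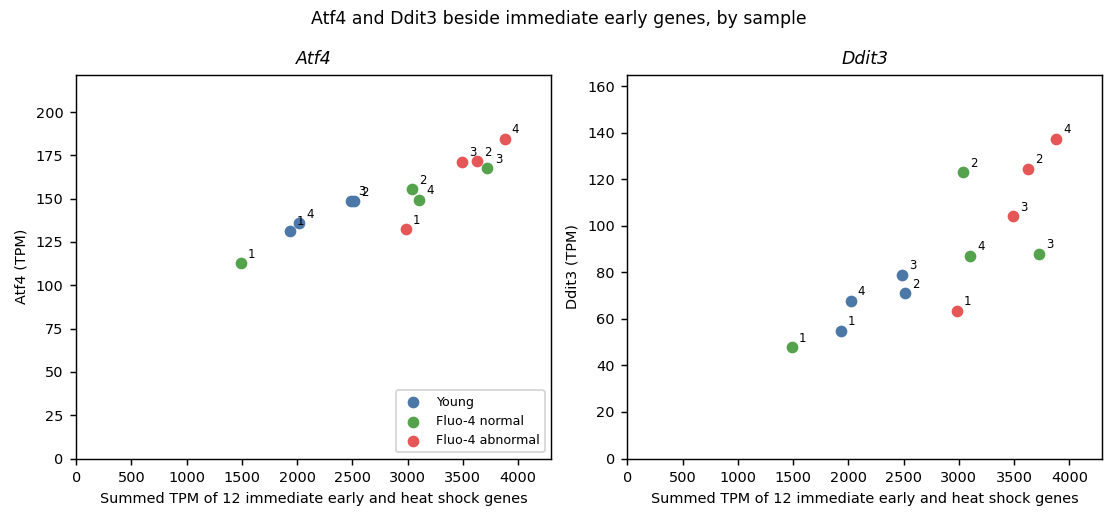
*Atf4* (left) and *Ddit3* (right) in TPM against the summed TPM of 12 immediate early and heat shock genes, 1 point per sample with its replicate number, linear axes from 0. In both panels replicate 1 of the Fluo-4 normal fibers (1488 TPM summed) lies lowest and replicate 4 of the Fluo-4 abnormal fibers (3878 TPM) highest.

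*Trib3*, a pseudokinase that is induced by ATF4 and CHOP and restrains them, was low and did not pass in any comparison. Its gene spans positions 152179337 to 152191958 of chromosome 2. It was listed at 0, 0.146, 0.136 and 0.222 TPM in young, 0.30, 0.519, 0.244 and 0.624 TPM in normal and 0.509, 0.917, 0.108 and 2.06 TPM in abnormal samples. The normal samples all lay above the young ones, as did those of 3.03% of all genes tested, whereas the abnormal samples ranged from below the highest young sample to the highest value of all 12. The difference was 0.66 between abnormal and young fibers (standard error 0.23, adjusted p = 0.096 from limma), and 0.33 between normal and young fibers (adjusted p = 0.60). The former passed without replicate 3 of the abnormal fibers (adjusted p = 0.025).

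*Mthfd2* was the gene called in both comparisons of abnormal fibers. It encodes a mitochondrial enzyme of folate one-carbon metabolism, is a known ATF4 target, and lies on chromosome 6 from 83282673 to 83302890. Its TPM was 2.74, 6.24, 4.00 and 3.16 in young, 4.37, 3.68, 3.88 and 5.06 in normal and 6.58, 11.5, 6.48 and 12.6 in abnormal samples. All 4 abnormal samples exceeded all 8 others, and the normal and young samples overlapped. Against young fibers alone, 12.2% of all genes tested had no overlap in this direction. The mean was 9.30 ± 3.23 TPM (SD, n = 4) in abnormal fibers, 2.19 times the 4.25 ± 0.614 TPM of normal fibers and 2.31 times the 4.03 ± 1.56 TPM of young fibers. *Mthfd2* rose by 0.93 (log2, standard error 0.24, adjusted p = 0.029 from limma) against normal and by 1.03 (standard error 0.24, adjusted p = 0.020) against young fibers, and normal and young fibers differed by 0.10 (95% interval -0.42 to 0.62, adjusted p = 0.91). The call against normal fibers was lost in 10 of 22 alternatives. The difference was 0.77 with TMM-type factors (adjusted p = 0.065), 0.69 with the *Myh4* share as a covariate (adjusted p = 0.23) and 0.35 with that share and the replicate number as a block (adjusted p = 0.69). In the last of these fits only 22 of all genes tested were called. Leaving out replicate 1, 2 or 3 of the normal or replicate 2 or 4 of the abnormal fibers also ended the call of *Mthfd2* (adjusted p = 0.060 to 0.10). The call against young fibers was lost in 8 of 22 alternatives, among them the *Myh4* share as a covariate (0.91, adjusted p = 0.056). Both calls stood under the filter of 5 TPM. *Mthfd2* passed that filter only through the abnormal group, where it is high, so these calls are no support.

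*Asns*, asparagine synthetase, a classic ATF4 target, was the other gene called. The gene spans positions 7671667 to 7728461 of chromosome 6. It was at 1.33, 0.633, 0.349 and 0.288 TPM in young, 0.273, 0.254, 0.535 and 0.330 TPM in normal and 0.583, 1.09, 1.77 and 1.42 TPM in abnormal samples. All abnormal samples lay above all normal samples, but the young samples spread over both. Exons of the non-coding gene 1700012J15Rik overlap it by 391 bp on the opposite strand, and that gene was at 0 in all samples. The abnormal mean of 1.22 ± 0.505 TPM (SD, n = 4) was 3.49 times the normal mean of 0.348 ± 0.129 TPM, and the young mean was 0.650 ± 0.477 TPM. Only the abnormal mean reached 1 TPM, so *Asns* escaped the low mark through that group alone. Few reads may lie behind its values and this ratio. *Asns* rose by 0.69 (log2, standard error 0.20, adjusted p = 0.043 from limma) against normal fibers, while the difference of 0.44 against young fibers (adjusted p = 0.20) and that of -0.26 between normal and young fibers (adjusted p = 0.64) did not pass. The call was lost in 17 of 21 alternatives. The difference was 0.62 with TMM-type factors (adjusted p = 0.089), 0.70 after rescaling without mitochondrially-encoded genes (adjusted p = 0.058), 0.71 with the *Myh4* share as a covariate (adjusted p = 0.15) and 0.50 with that share and the replicate number as a block (adjusted p = 0.50). In the last of these fits only 22 of all genes tested were called. Of the 8 fits without 1 aged sample, the call stood in that without replicate 1 of the abnormal fibers (adjusted p = 0.019), and in the other 7 the adjusted p was 0.051 to 0.12.

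**Figure D4:**
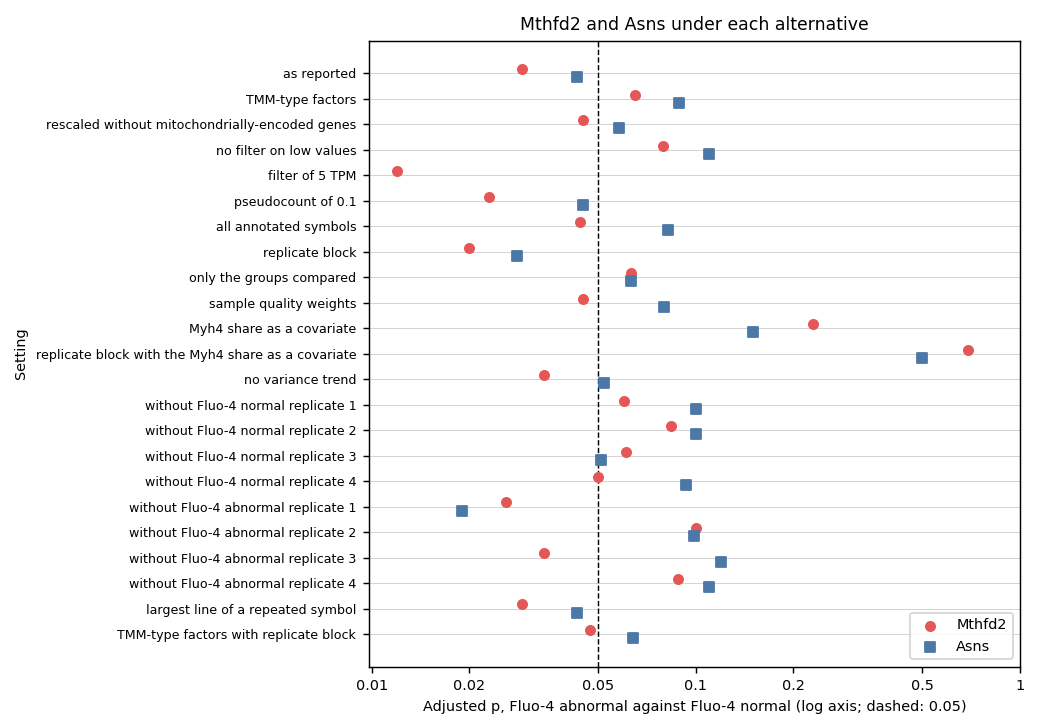
Adjusted p (log axis) of *Mthfd2* (circles) and *Asns* (squares) between Fluo-4 abnormal and Fluo-4 normal fibers, as reported and under each alternative, from limma. The dashed line marks 0.05. *Mthfd2* ranges from 0.012 to 0.69 and *Asns* from 0.019 to 0.50, and *Asns* is not tested under the filter of 5 TPM. The 0.012 comes from that filter, which *Mthfd2* passes only through the abnormal group.

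*Psat1* and *Phgdh*, enzymes of serine synthesis from glycolytic intermediates and also ATF4 targets, were near the floor of the data. *Psat1*, on chromosome 19 from 15882039 to 15924701, was listed at 0.013 to 0.151 TPM in young, 0 to 0.323 in normal and 0.065 to 0.260 in abnormal samples. Its difference between abnormal and normal fibers was 0.00 (95% interval -0.18 to 0.18, adjusted p = 1.0). *Phgdh*, on chromosome 3 from 98220484 to 98255047, was listed at 0.028 to 0.246 TPM in young, 0 to 0.576 in normal and 0.076 to 0.443 in abnormal samples. It was the 1 gene with a negative difference between abnormal and normal fibers (-0.08, 95% interval -0.39 to 0.22, adjusted p = 0.75). Several processed pseudogenes match the *Phgdh* transcript at 95% identity or more over at least 50% of its length, so its values are uncertain. No difference of *Psat1* or *Phgdh* between groups was detected.

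The secreted factors were at or near 0. *Gdf15*, a hormone that lowers food intake and rises in the blood in mitochondrial disease, occupies positions 71082038 to 71091537 of chromosome 8. It was listed at 0.044, 0.026, 0.125 and 0.174 TPM in young, 0.158, 0.167, 0.131 and 0 TPM in normal and 0.030, 0.085, 0 and 0.563 TPM in abnormal samples. The groups overlapped, and the difference between abnormal and normal fibers was 0.05 (95% interval -0.21 to 0.30, adjusted p = 0.83). Its exons share 391 bp with an antisense non-coding gene, which was not analysed here. *Fgf21*, a hormone of fasting and mitochondrial stress, occupies positions 45263301 to 45266963 of chromosome 7. It was listed at 0 in all 4 young and all 4 normal samples and at 0.439, 0.095, 0 and 0.385 TPM in the abnormal samples. *Fut1*, whose exons overlap those of *Fgf21* on the other strand by 245 bp, was at 0.085 TPM or less in every sample. With a group at 0 no fold is given, and the difference of 0.28 on the log2(TPM + 1) scale had an adjusted p of 0.077 against normal and 0.083 against young fibers in limma. *Fgf21* entered the test only through the abnormal group, where it is high, so these p-values support nothing on their own.

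The methods of the study select genes by a 2-fold difference from young fibers and a p under 0.05 between abnormal and normal fibers, without naming the aged group of the first condition. Read here as the ratio of the abnormal to the young mean and the unadjusted limma p, they were met by *Mthfd2* and by 3.38% of all genes tested. *Trib3* passed the fold condition at a ratio of 7.14 but not the second condition (unadjusted p of 0.18 in limma). *Asns* passed the second (unadjusted p of 0.0036 in limma) but not the fold, at a ratio of 1.87. *Fgf21* also met both in form, but with a young mean of 0 and by way of the abnormal group alone, so it is not counted as support.

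The replicate numbers of the aged groups gave a second view of the same values. Abnormal replicates exceeded the normal replicate of the same number in 4 of 4 pairs for *Atf4*, *Ddit3*, *Asns* and *Mthfd2*, as they did for 27.9% of all genes tested. For *Mthfd2* the excess was 2.21, 7.85, 2.59 and 7.56 TPM, and for *Asns* 0.310, 0.837, 1.24 and 1.09 TPM. For *Ddit3* it was 15.5, 1.42, 16.1 and 50.3 TPM, and for *Atf4* 19.7, 16.1, 3.86 and 35.4 TPM. *Fgf21* was higher in 3 pairs and equal at 0 in the other. Replicate 4 of the abnormal fibers held the highest value of all 12 samples for 5 of the 10 genes, *Atf4*, *Ddit3*, *Trib3*, *Mthfd2* and *Gdf15*, and replicate 1 of the normal fibers the lowest for 4. The shares of all genes tested with these extremes were not computed, so the counts cannot be read as a trait of the set. Replicate 1 of the normal fibers also had the lowest TMM-type factor of the 12 samples (0.841).

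For the 3 genes of the set with a mean of at least 5 TPM in a group, the genes of most like pattern were sought among 5991 genes by Pearson's r of log2(TPM + 1) over the 12 samples. The r values are descriptions, since they were picked as the highest. Nearest to *Atf4* were *Gadd45g*, a stress-inducible gene of growth arrest (r = 0.982), *Irs2*, an insulin receptor substrate (0.966), and *Zfp36*, an mRNA decay factor of the immediate early response (0.966). Nearest to *Ddit3* were *Gcc1* (0.952), *Ccnl1* (0.934) and *Lrrc30* (0.918). *Mthfd2* had other neighbours, *Pank2*, a pantothenate kinase (0.960), *Ctsz*, a lysosomal cathepsin (0.956), and *Ubxn4*, a protein of ER-associated degradation (0.948). *Atf4* and *Ddit3* were closer to each other (r = 0.919) than either was to *Mthfd2* (0.587 and 0.598).

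The members were set beside 9 lists of 101 other genes from the same and neighbouring pathways, of which 97 were tested. Between abnormal and normal fibers, 16 of these genes were called higher and 0 lower by limma, 84 differences were positive and 13 negative. Of all genes tested, 7.36% were called higher and 69.6% were positive in this comparison. The list of ATF6 and IRE1 outputs alone held 8 of the 16 calls. Against young fibers, abnormal fibers had 12 called higher, 7 of them ATF6 and IRE1 outputs, and 0 lower, where 6.09% of all genes were called higher. Normal fibers had 0 called against young fibers, where 1.15% of all genes were called.

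Upstream of ATF4, 1 of 12 genes for eIF2 kinases, their relays and phosphatase subunits was called higher in abnormal than in normal fibers, with a median of 0.21. This gene was *Dnajc3*, an ER co-chaperone that inhibits eIF2 kinases, at 12.8 ± 1.52 against 7.73 ± 2.01 TPM (SD, n = 4), a log2 difference of 0.68 (adjusted p = 0.015). Of the 5 subunits of eIF2B, the exchange factor that phosphorylated eIF2 blocks, 1 was called higher, *Eif2b2* (0.48, adjusted p = 0.018), with a median of 0.16. Under TMM-type factors *Dnajc3* remained called (adjusted p = 0.028) and *Eif2b2* did not (adjusted p = 0.20).

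Among other known ATF4 targets, 0 of 12 regulators were called between abnormal and normal fibers by limma, with a median of 0.22. An unadjusted p under 0.05 was found for 2 of them, against 25.6% of all genes tested. The smallest p of these regulators was that of *Vldlr*, a lipoprotein receptor (0.67, adjusted p = 0.053, and 0.0054 with the replicate number as a block). *Atf3*, a stress-induced factor, was called between abnormal and young fibers, at 152 ± 29.2 against 75.8 ± 17.5 TPM (SD, n = 4), a log2 difference of 1.00 (adjusted p = 0.035). In normal fibers *Atf3* was at 138 ± 53.0 TPM, 0.78 above young fibers (adjusted p = 0.21 from limma). Abnormal and normal fibers differed by 0.23 in *Atf3* (adjusted p = 0.63 from limma). Of 9 amino acid transporters 7 were tested and 1 was called, *Slc7a5*, the large neutral amino acid transporter, with a median of 0.34. It was at 2.595 ± 0.572 TPM in abnormal, 1.02 ± 0.246 in normal and 0.659 ± 0.111 in young fibers (SD, n = 4), a log2 difference of 0.82 against normal (adjusted p = 0.0057) and 1.10 against young fibers (adjusted p = 0.00083). With TMM-type factors *Slc7a5* was at 0.71 against normal fibers and remained called (adjusted p = 0.0075 from limma). That call stood in 20 of 21 alternatives, with a highest adjusted p of 0.19. Of 8 genes of amino acid synthesis 7 were tested and 1 was called, *Pycr1*, a proline synthesis enzyme, at 4.82 ± 0.523 against 2.59 ± 0.428 TPM (0.70, adjusted p = 0.012), with a median of 0.15. With TMM-type factors *Pycr1* was at 0.56 and was not called (adjusted p = 0.050). Of 11 folate enzymes not taken as ATF4 targets 10 were tested and 0 were called (1 unadjusted), with a median of 0.11, and the smallest p was that of *Gcsh* (0.22, adjusted p = 0.17, and 0.035 with the replicate number as a block). The difference between *Mthfd2* and these other folate enzymes was not itself tested.

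Of 20 cytosolic aminoacyl-tRNA synthetases, many of them ATF4 targets that load amino acids onto tRNAs, 4 were called higher in abnormal than in normal fibers, with a median of 0.24. *Iars1* (0.40, adjusted p = 0.016), *Kars1* (0.35, adjusted p = 0.018) and *Tars1* (0.38, adjusted p = 0.028) had the smallest p-values. With TMM-type factors 0 of the 20 were called (8 with the replicate number as a block), and their median was 0.07. Of all 14426 genes tested, 886 were called with TMM-type factors and 2281 with the block.

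The outputs of the other ER stress branches, which act through ATF6 and IRE1, held the highest share of calls of the 9 lists. The lists were chosen with earlier results of these data known, and the study reported raised ER terms in these abnormal fibers. This rank is therefore only a description. Whether ATF4 also acts on genes of this list was not tested. Of 12 such genes 8 were called higher in abnormal than in normal fibers, with a median of 0.54, and 7 against young fibers, with a median of 0.64. *Sdf2l1*, an ER chaperone component, was at 15.0 ± 2.46 TPM in abnormal against 6.83 ± 1.52 in normal fibers (SD, n = 4), a log2 difference of 1.04 (adjusted p = 0.0023). *Hspa5*, the major ER chaperone BiP, was at 231 ± 22.2 against 142 ± 26.3 TPM (0.71, adjusted p = 0.0058), and *Xbp1*, the factor spliced by IRE1, at 122 ± 13.8 against 82.9 ± 10.4 TPM (0.55, adjusted p = 0.0060). With TMM-type factors 5 of the 12 were called, with a median of 0.38, and *Xbp1* was not among them (adjusted p = 0.061). The median of the 10 ISR genes was 0.23 in the same comparison, and no test of the difference between lists was made.

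Of the 12 immediate early and dissociation response genes, 0 were called between abnormal and normal fibers by limma, with a median of 0.37. An unadjusted p under 0.05 was found for 3, against 25.6% of all genes tested. With the replicate number as a block 4 were called, as were 2281 of all 14426 genes tested. Against young fibers 1 was called in abnormal fibers, *Egr1* (0.98, adjusted p = 0.044), with a median of 0.65. *Egr1* also had the smallest p between abnormal and normal fibers (0.80, adjusted p = 0.086).

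**Figure D5:**
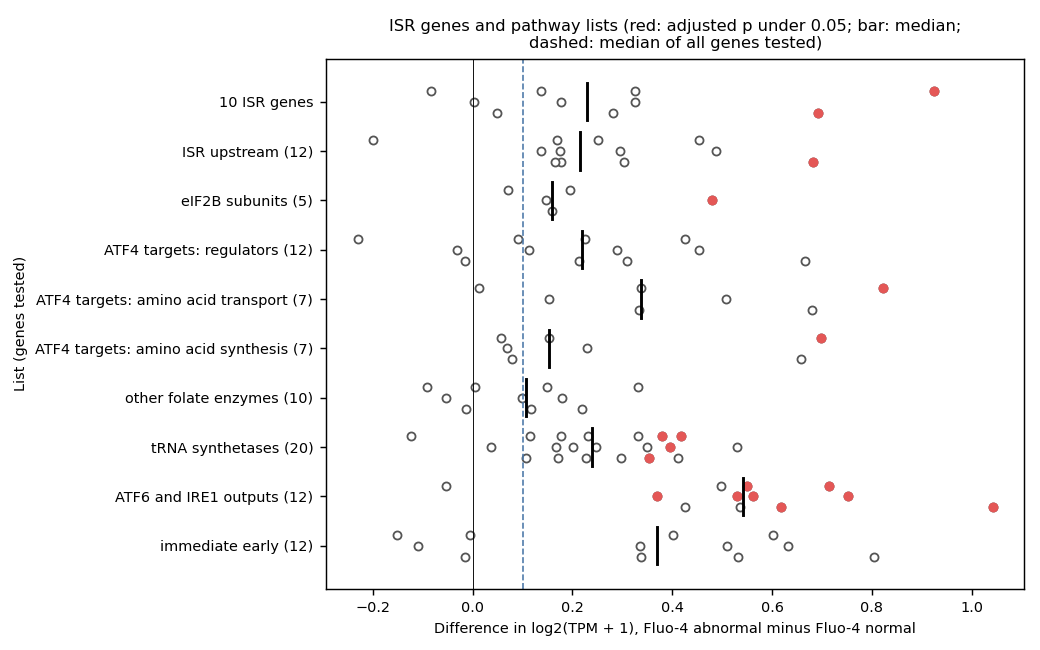
Differences in log2(TPM + 1) between Fluo-4 abnormal and Fluo-4 normal fibers for the 10 ISR genes and the 97 tested genes of 9 pathway lists, 1 point per gene, with vertical bars at each median and a dashed line at the median of all genes tested (0.10). Red points have an adjusted p under 0.05, 8 of them among the 12 ATF6 and IRE1 outputs and 2 among the 10 ISR genes.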

How the data were processed

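RNA-seq of 12 myofiber samples was used, 4 each of young, Fluo-4 normal and Fluo-4 abnormal fibers. The authors made SMART-Seq v4 libraries, which keep no strand, with an input of 10 ng of RNA. They mapped the reads with DRAGEN 4.3 to GRCm39, and TPM values per gene symbol were deposited by the authors, 1 table per sample. The 55487 lines of a table held 55367 symbols, and the 114 symbols on several lines were summed. The annotation release is not given in the sources used here, and without counts no depth or counting interval was computed.

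Protein-coding and mitochondrially-encoded genes with a mean of 0.02 TPM or more in at least 1 group were tested, after matching symbols to GENCODE vM39 and RefSeq (2889 symbols unmatched). limma 3.58.1 (R 4.3.3) was fitted to log2(TPM + 1) of the 3 groups with a variance trend and Benjamini-Hochberg adjustment. On this scale, fold changes of low genes come out too small. The study's criteria were read as stated in the results. Genes named from a list are those called, up to 3 with the smallest p between abnormal and normal fibers, or the 1 with the smallest p. Besides the marker lists given in the results, the endothelial list summed to 2.63 to 17.9 TPM, the fibroblast list to 13.6 to 82.4, the erythroid list to 33.1 to 480, the Schwann list to 0.448 to 2.21 and the smooth muscle list to 2.65 to 49.0.

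The members and lists were chosen with earlier results of these data known. The alternatives tried were scaling by TMM-type factors (30% and 5% trimmed), other scaling, filters, pseudocount and gene sets, only the groups compared, sample weights, no trend, the *Myh4* share of *Myh1*, *Myh2*, *Myh4* and *Myh7* as a covariate, a replicate block and leaving out each sample. TMM-type factors with the block were added after seeing the data. Over 5994 genes, departures from the group mean were correlated between abnormal and normal samples. With the same number r was 0.302 to 0.438, and with different numbers -0.365 to 0.234. The aged numbers were therefore taken as pairs in the replicate block, but not in the fit as reported. Young numbers were not taken as pairs (-0.0807 to 0.228 with normal samples). The block for comparisons with young fibers still held all 12 samples by number. Coordinates are from GENCODE vM39 on GRCm39, and promoters from the RefSeq table of GRCm38.p6, placed in GRCm39 by exact match. Copies were sought with BLAST 2.17.0. Python 3.11.15, pandas 2.3.3, numpy 2.4.6, scipy 1.17.1 and matplotlib 3.10.9 were used.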

Additional observations from a re-analysis of the deposited data

Results flagged for a closer look

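*Gdf15* stood out in 1 of the 28 sets of 4 samples examined. Replicate 4 of the Fluo-4 abnormal fibers was at 0.563 TPM and the other 3 at 0 to 0.085 TPM, and the gap to the nearest of them was 0.849 of the whole range, past Dixon's critical value for 4 samples. Chance alone gives about 1 such sample in 20 sets. The same sample held the highest value of all 12 for 5 of the 10 genes. The share of all genes for which it did so was not computed, and the cause was not tested.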

How the results depend on the processing

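The 10 genes were refitted under 21 or 22 alternatives for each comparison, 639 values in all, of which 560 kept their direction and their side of the threshold, 35 lost a call, 11 gained one and 33 changed direction. The cause of these changes was not tested. Between Fluo-4 abnormal and normal fibers, 2 genes were called as reported. The number was 0 with TMM-type factors, without a filter on low values, with only the groups compared, and with the *Myh4* share as a covariate, alone or with a replicate block. It was 1 (*Mthfd2*) after rescaling without mitochondrially-encoded genes, with a filter of 5 TPM, with all annotated symbols, with sample weights, without a variance trend and with TMM-type factors and a replicate block, and 0 to 2 when a sample was left out. With the replicate block alone, in which the aged samples are paired, it was 3 (*Asns*, *Mthfd2* and *Fgf21*), as it was with a pseudocount of 0.1. *Fgf21* entered these fits through the abnormal group alone. *Mthfd2* likewise passed the filter of 5 TPM only through the abnormal group, so its call under that filter is no support. Of the genes tested in each fit, 1349 were called as reported, 886 with TMM-type factors, 850 without a filter and 567 with only the groups compared. The *Myh4* share gave 821 called genes, that share with the block 22 and the block alone 2281. With a pseudocount of 0.1 there were 1372. The counts of members therefore stand on very different backgrounds. Between abnormal and young fibers, 1 gene was called as reported, 0 without a filter on low values and with only the groups compared, 1 with the *Myh4* share (*Ddit3* in place of *Mthfd2*), and 0 to 3 when a sample was left out. In that comparison, whose samples share only a number, a replicate block gave 3 (*Ddit3*, *Mthfd2* and *Trib3*), also with TMM-type factors, and 2 (*Ddit3* and *Mthfd2*) with the *Myh4* share. *Ddit3* had an adjusted p of 0.021 and *Trib3* of 0.033 under that block in limma. Of the genes tested between abnormal and young fibers, 1227 were called as reported, 750 without a filter and 1263 with only the groups compared. The *Myh4* share gave 1293, the block 1652, the block with TMM-type factors 1409 and the block with the *Myh4* share 1224. Between normal and young fibers 0 genes were called under every alternative. The criteria of the methods, as read here, gave 2 genes (*Mthfd2* and, in form, *Fgf21*), 1 with a pooled-variance p and 3 without the fold condition.

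Of the values that changed direction none was called. Between abnormal and normal fibers, *Atf4* was at -0.002 with TMM-type factors, with or without the block, and *Atf5* at -0.073 with the block and the *Myh4* share. *Psat1* was at -0.016 with TMM-type factors, with or without the block, -0.006 when rescaled without mitochondrially-encoded genes, -0.030 with sample weights and -0.072 to 0.063 when a sample was left out. *Phgdh* was at 0.28 with the *Myh4* share, 0.074 with the block and that share, and -0.20 to 0.019 when a sample was left out. *Gdf15* was at -0.10 to 0.115 when a sample was left out. Between abnormal and young fibers, *Atf5* was at -0.048 with TMM-type factors, with or without the block, -0.006 when rescaled, -0.039 with the *Myh4* share, -0.099 with the block and that share, and -0.060 to 0.057 when a sample was left out, and *Gdf15* at -0.072 to 0.143. Between normal and young fibers, *Atf4* was at -0.066 with the *Myh4* share, -0.007 with the block and that share, and -0.032 to 0.158 when a sample was left out. *Ddit3* was at -0.004 with the *Myh4* share, *Gdf15* at -0.003 with sample weights and -0.001 to 0.079 when a sample was left out, and *Mthfd2* at -0.026 to 0.292. TPM files give no depth, so what depth limits cannot be stated.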
